A study of Mus musculus with 6 samples.

Results

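The proteasome is the large protease that degrades ubiquitin-marked proteins, and its constitutive genes are described here in mouse embryonic fibroblasts (MEFs) depleted of the mitochondrial protease YME1L. Members were the loci of the raw count table in which a name, after splitting joined names, began with Psma to Psmg followed by a number. Names marked as pseudogenes were left out, as were the immunoproteasome genes *Psmb8*, *Psmb9* and *Psmb10*, and *Psme1* and *Psme2* were set apart as an interferon-responsive contrast. This gave 46 of 51499 loci, and 43 of them passed the filter on low counts among 14499 loci tested. The 46 loci hold 45 gene symbols, since *Psmd5* occurs in 2 loci. Of these symbols, 41 name known subunits, assembly chaperones, activators or inhibitors, 2 name forms of other tissues (*Psma8* and *Psmb11*), and 2 match the naming rule without being constitutive parts (*Psmc3ip*, and *Psme2b*, a near copy of the contrast gene *Psme2*).

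RNA-Seq libraries were made from WT MEFs collected 72 h after transfection with a scrambled (Scr) siRNA or with Yme1l siRNA. There were 3 independent cultures per group, both groups with the same WT genotype and the same time point. The labels call the cells 3T3 immortalized, but in the study's methods immortalization was by SV40 large T antigen and WT means a clone with loxP sites in both *Yme1l* alleles. The Scr siRNA libraries 1, 2 and 3 held 45205207, 37260605 and 41929579 counts, and the Yme1l siRNA libraries held 43630145, 42161756 and 41342446. Levels are given as counts scaled to a common library size (CPM), with sizes adjusted by the TMM method, and a locus was called higher or lower in Yme1l siRNA cultures where edgeR's quasi-likelihood test gave a Benjamini-Hochberg adjusted p under 0.05 over all loci tested. Fold changes compare Yme1l siRNA with Scr siRNA cultures, and values after ± are SD with n = 3.

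In the proteasome, alpha and beta subunits form stacked rings that enclose the proteolytic sites, which are carried by *Psmb5*, *Psmb6* and *Psmb7*. A regulatory particle, made of a base with ATPase subunits and a lid, recognizes ubiquitinated substrates, removes the ubiquitin and threads the substrate into the core. Interferons replace the catalytic subunits by *Psmb8*, *Psmb9* and *Psmb10* and raise the activator subunits *Psme1* and *Psme2*, which promotes the production of peptides for antigen presentation.

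The cells were checked against markers of fibroblasts and of other cell types. *Col1a1*, which encodes a chain of fibrillar collagen, stood at 14654, 11954 and 11476 CPM in Scr siRNA cultures 1, 2 and 3. It stood at 9031, 9205 and 7275 CPM in Yme1l siRNA cultures, so this fibroblast marker was abundant in every library. Of 7 fibroblast markers, 6 were tested, of which 5 were called lower and 0 higher, against 29.6% and 28.4% of all loci tested. *Thy1*, the marker not tested, had at most 1 count in a library. The summed level of the 7 markers was 31576, 27869 and 24557 CPM in Scr siRNA cultures and 17150.3, 16938 and 14191.0 CPM in Yme1l siRNA cultures. The epithelial markers *Epcam*, *Cdh1* and *Krt14* summed to at most 0.529 CPM in a library, and the endothelial markers *Pecam1*, *Cdh5* and *Kdr* to at most 1.92 CPM, with 1 of the 3 (*Kdr*) called higher. Among leukocyte markers, *Adgre1* had 0 counts in each of the 6 libraries and *Ptprc* had 0 counts in 5 of them, while *Csf1r* was called higher, from 123 ± 12.8 to 205 ± 20.3 CPM. The part of these marker changes in the proteasome results was not tested.

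*Yme1l1*, the targeted gene (XLOC_022557, chromosome 2, 23156369 to 23199260 of GRCm38), had 170.5, 171 and 171 CPM in Scr siRNA cultures 1, 2 and 3 and 31.6, 23.4 and 45.0 CPM in Yme1l siRNA cultures 1, 2 and 3. All Yme1l siRNA cultures lay far below all Scr siRNA cultures, and culture 3 kept the most transcript (log2 fold change -2.36, standard error 0.20, edgeR adjusted p = 3.87e-05).

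Most constitutive proteasome genes were modestly higher after *Yme1l* depletion. Of the 43 members tested, 30 were called higher (69.8%), against 28.4% of all loci tested, and 3 were called lower (6.98%), against 29.6% of all loci tested. The groups did not overlap for 35 members (81.4%), against 65.4% of all loci tested, and 32 of these 35 were higher in Yme1l siRNA cultures. The median Scr siRNA level was 122 CPM over the members and 25.2 CPM over all loci tested, so these shares do not compare loci of equal level. The median log2 fold change was 0.28 over the members, or 1.21-fold, and 0.0086 over all loci tested. The log2 fold change lay above 0 for 38 members and below 0 for 5, over a range from -0.90 to 0.88. The highest value is that of *Psme2b*, the near copy of *Psme2*, and among the 40 members alone in their locus, which leave it out, 29 were called higher and 3 lower with a median of 0.28. The highest value among these 40 was 0.61, for *Psmd9*. They still hold *Psmc3ip*, which matches the naming rule only and was called higher. Of the 31 core and regulatory particle subunits alone, with *Psmd1* in its joined locus, 23 were called higher (74.2%) and 1 lower (3.23%), against the same shares of all loci tested. The 3 members called lower were *Psme4*, *Psmd10* and *Psmb6*, of which *Psmd10* falls outside the rule for named genes and was chosen after its values were seen. In whole cultures, fewer cells of a kind and less RNA per cell cannot be told apart. When each of the 6 cultures was left out in turn, 21 of the 30 members called higher and all 3 called lower passed the threshold in every fit, and 9 lost the call in at least 1 fit (*Psma4*, *Psma6*, *Psma7*, *Psmb5*, *Psmc6*, *Psmd6*, *Psmd11*, *Psmd13* and *Psmg4*). The fit without Scr siRNA culture 1 left 21 members called higher, the lowest of these 6 counts, with all 9 of those calls lost.

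**Figure D1:**
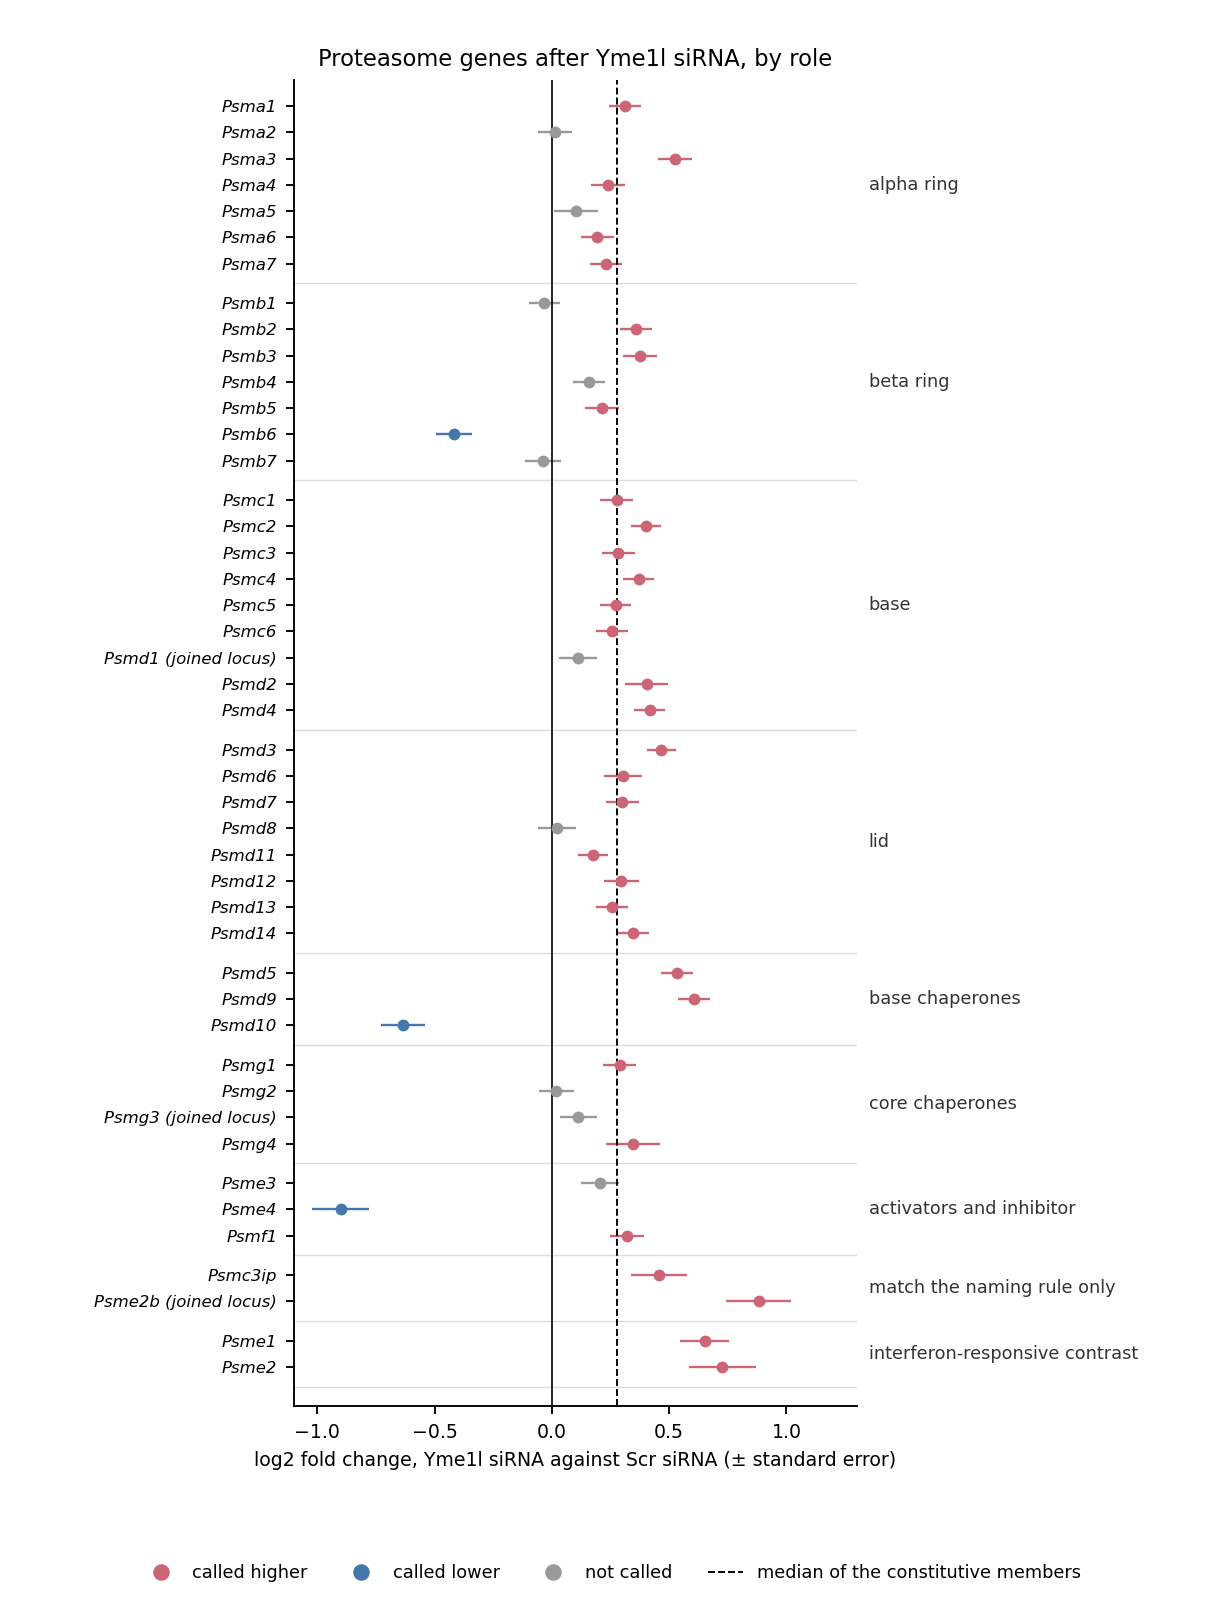
Log2 fold change of each member tested and of *Psme1* and *Psme2* (x axis, with standard error), grouped by role from top to bottom, with the colour giving the call at an adjusted p of 0.05. Most points lie near the dashed median of 0.28, and *Psmb6*, *Psmd10* and *Psme4* lie on the other side of 0.

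The shift was seen in each Yme1l siRNA culture. Over the 40 members that are alone in their locus, the median of the log2 ratio to the Scr siRNA mean was -0.037, 0.039 and 0.00090 in Scr siRNA cultures 1, 2 and 3 and 0.26, 0.24 and 0.31 in Yme1l siRNA cultures 1, 2 and 3. Of the 43 members, 35, 34 and 38 exceeded every Scr siRNA culture in Yme1l siRNA cultures 1, 2 and 3, and 6, 7 and 4 lay below every Scr siRNA culture. By share, 81.4%, 79.1% and 88.4% of the members lay above every Scr siRNA culture, against 41.4%, 42.3% and 40.6% of all loci tested, and 14.0%, 16.3% and 9.30% lay below, against 41.7%, 41.9% and 42.5%. Culture 3 stood highest by this median and this share, and so it did in the alpha ring, base, lid and core chaperones. It did not in the beta ring (medians of 0.12, 0.21 and 0.11 in Yme1l siRNA cultures 1, 2 and 3), the base chaperones or the activators and inhibitor. Culture 3 also kept the most *Yme1l1* transcript, and a link between that transcript and these levels was not tested. The summed level of 30 core and regulatory particle subunits was 4508 ± 116 CPM in Scr siRNA cultures and 5336 ± 159 CPM in Yme1l siRNA cultures, 1.18-fold higher, and the groups did not overlap.

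The alpha ring holds the gate through which substrates enter. Of its 7 subunits, 5 were called higher (71.4%) and 0 lower, against 28.4% and 29.6% of all loci tested. The median log2 fold change of the ring was 0.23. *Psma3* (XLOC_009301, chromosome 12, 70974621 to 70996347) stood at 108, 113 and 100.4 CPM in Scr siRNA cultures 1, 2 and 3 and at 155, 150.2 and 158 CPM in Yme1l siRNA cultures. It was 1.44-fold higher, the largest increase in either ring (log2 fold change 0.53, standard error 0.071, edgeR adjusted p = 0.000354), and the groups were clearly separated. *Psma1* (XLOC_041863, chromosome 7, 114264606 to 114276118) had 98.2, 106 and 105 CPM with Scr siRNA and 124, 128 and 132 CPM with Yme1l siRNA. Every Yme1l siRNA culture exceeded every Scr siRNA culture here too (log2 fold change 0.31, standard error 0.067, edgeR adjusted p = 0.00419). *Psma4* (0.24), *Psma7* (0.23) and *Psma6* (0.19) were called higher by smaller log2 fold changes. These 3 calls lay close to the threshold, and fits with fewer cultures lost them while the log2 fold changes stayed between 0.20 and 0.28 for *Psma4*, 0.19 and 0.27 for *Psma7* and 0.15 and 0.23 for *Psma6*. *Psma4* lost its call without Scr siRNA culture 1 or 3 or Yme1l siRNA culture 1 (edgeR adjusted p of up to 0.101), *Psma7* without Scr siRNA culture 1 or Yme1l siRNA culture 3 (edgeR adjusted p of up to 0.0886), and *Psma6* in every fit except that without Yme1l siRNA culture 2 (after removing Scr siRNA 1, 2 or 3 or Yme1l siRNA 1 or 3). *Psma2* (0.014) and *Psma5* (0.10) did not pass the test, with edgeR adjusted p of 0.883 and 0.366, and their groups overlapped. Leaving out a culture gave -0.043 to 0.068 for *Psma2* and 0.0095 to 0.18 for *Psma5*. Several processed copies in the genome resemble *Psma3*, and one of them, *Gm13835*, is 100% identical to it over 665 bases, so that reads of these genes may have been divided between loci. Near copies align to at most 27.1% of the *Psma3* transcript, but to 76.8% of that of *Psma5* and 67.2% of that of *Psma4*.

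In the beta ring, 3 of 7 subunits were called higher (42.9%), 1 lower (14.3%) and 3 not called, against 28.4% and 29.6% of all loci tested. The median log2 fold change of the ring was 0.16. *Psmb6*, which carries the caspase-like site (XLOC_006522, chromosome 11, 70525367 to 70527858), had 164, 169 and 167 CPM in Scr siRNA cultures 1, 2 and 3 and 121, 117 and 136 CPM in Yme1l siRNA cultures. All 3 Yme1l siRNA cultures lay below all 3 Scr siRNA cultures, a level 1.33-fold lower (log2 fold change -0.42, standard error 0.076, edgeR adjusted p = 0.00176). *Psmb2* (XLOC_029715, chromosome 4, 126677630 to 126709714), a beta subunit without a catalytic site, had 78.0, 78.3 and 75.8 CPM with Scr siRNA and 94.7, 105 and 98.0 CPM with Yme1l siRNA. It moved the opposite way, with no overlap between groups (log2 fold change 0.36, standard error 0.068, edgeR adjusted p = 0.00210). *Psmb3* (0.38) and *Psmb5* (0.21), which carries the chymotrypsin-like site, were also called higher. The call of *Psmb5* was lost without Scr siRNA culture 1 or 3 or Yme1l siRNA culture 1 or 3 (edgeR adjusted p of up to 0.143), with log2 fold changes of 0.16 to 0.25 over the 6 fits. *Psmb4* had a log2 fold change of 0.16 with an edgeR adjusted p of 0.0726, although its groups did not overlap, and was called with a minimum mean of 50 counts (edgeR adjusted p = 0.0330). *Psmb1* (-0.031) and *Psmb7* (-0.037), which carries the trypsin-like site, had groups that overlapped. The 3 catalytic genes thus gave 1 call in each direction and 1 gene not called. The summed level of the 7 beta subunits was 1122 ± 36.8 CPM with Scr siRNA and 1170.2 ± 37.0 CPM with Yme1l siRNA, and the groups overlapped.

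In the base of the regulatory particle, 8 of 9 subunits were called higher (88.9%) and 0 lower, against 28.4% and 29.6% of all loci tested. The median log2 fold change of the base was 0.28. All 6 ATPase genes, *Psmc1* to *Psmc6*, were called higher, with log2 fold changes between 0.26 and 0.40. *Psmc2* (XLOC_031702, chromosome 5, 21785283 to 21803787) had 151, 160.4 and 154 CPM in Scr siRNA cultures 1, 2 and 3 and 201, 208 and 207 CPM in Yme1l siRNA cultures. The cultures of each group lay close together and far from the other group (log2 fold change 0.40, standard error 0.063, edgeR adjusted p = 0.000789). *Psmd4*, which encodes a ubiquitin receptor (XLOC_028101, chromosome 3, 95032694 to 95042614), had 156, 165 and 160.3 CPM with Scr siRNA and 212, 222 and 209 CPM with Yme1l siRNA. It had the largest log2 fold change of the base and no overlap between groups (log2 fold change 0.42, standard error 0.065, edgeR adjusted p = 0.000739). The other ATPases were *Psmc4* (0.37), *Psmc3* (0.28), *Psmc1* (0.28), *Psmc5* (0.27) and *Psmc6* (0.26), and the scaffold subunit *Psmd2* had a log2 fold change of 0.40. *Psmd1*, a further scaffold subunit, is counted in a locus joined with *Armc9* and *Gm21972*, and this locus was not called (log2 fold change 0.11, edgeR adjusted p = 0.271) except without Yme1l siRNA culture 2, where the log2 fold change was 0.19. *Psmc6* lost its call without Scr siRNA culture 1 (log2 fold change 0.21, edgeR adjusted p = 0.0609). Without *Psmd1*, the summed level of 8 base subunits was 1510.9 ± 46.9 CPM with Scr siRNA and 1917 ± 69.7 CPM with Yme1l siRNA, 1.27-fold higher.

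In the lid, which removes ubiquitin from substrates, 7 of 8 subunits were called higher (87.5%) and 0 lower. The shares over all loci tested were 28.4% and 29.6%, and the median log2 fold change of the lid was 0.30. *Psmd3* (XLOC_006937, chromosome 11, 98682554 to 98695979) had 205, 210.3 and 204 CPM in Scr siRNA cultures 1, 2 and 3 and 283, 286 and 287 CPM in Yme1l siRNA cultures. Its cultures differed little within a group, and its change was the largest of the lid (log2 fold change 0.47, standard error 0.061, edgeR adjusted p = 0.000300). *Psmd14*, the metalloprotease that cleaves off ubiquitin chains (XLOC_022946, chromosome 2, 61711694 to 61800376), had 104, 112 and 103 CPM with Scr siRNA and 135, 129.8 and 140.01 CPM with Yme1l siRNA. These groups were also separate (log2 fold change 0.35, standard error 0.069, edgeR adjusted p = 0.00272). *Psmd6* (0.30), *Psmd7* (0.30), *Psmd12* (0.30), *Psmd13* (0.26) and *Psmd11* (0.18) were called higher, and *Psmd8* (0.022) was not, with an edgeR adjusted p of 0.829 and groups that overlapped. Without Scr siRNA culture 1, *Psmd6* and *Psmd13* lost the call (edgeR adjusted p = 0.0520 and 0.0613), and *Psmd11* kept it only without Yme1l siRNA culture 2 (edgeR adjusted p of up to 0.141 after removing Scr siRNA 1, 2 or 3 or Yme1l siRNA 1 or 3). Over the 6 fits the log2 fold change was 0.23 to 0.37 for *Psmd6*, 0.22 to 0.29 for *Psmd13* and 0.15 to 0.20 for *Psmd11*.

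Chaperones that build the base bind its ATPases and leave before the particle is complete. *Psmd9* (XLOC_032762, chromosome 5, 123169413 to 123250131) had 37.4, 37.2 and 36.9 CPM in Scr siRNA cultures 1, 2 and 3 and 57.7, 59.3 and 52.7 CPM in Yme1l siRNA cultures. It had the smallest adjusted p of all members, at a level 1.52-fold higher (log2 fold change 0.61, standard error 0.067, edgeR adjusted p = 0.000123). Its exons share 1849 bases with *Gm26745* on the other strand, and although the library kit was a stranded one, whether the counting used the strand is not given in the sources used here. *Psmd5* (XLOC_024503, chromosome 2, 34849734 to 34874968) had 96.1, 95.1 and 103 CPM with Scr siRNA and 141, 138 and 148 CPM with Yme1l siRNA. This chaperone was higher in all 3 Yme1l siRNA cultures than in any Scr siRNA culture (log2 fold change 0.53, standard error 0.068, edgeR adjusted p = 0.000259). *Psmd10*, which encodes gankyrin (XLOC_049721, chromosome X, 140948429 to 140956728), had 29.3, 34.4 and 31.4 CPM with Scr siRNA and 19.8, 19.2 and 22.3 CPM with Yme1l siRNA. Its level was 1.55-fold lower, opposite to the other base chaperones and again with no overlap (log2 fold change -0.63, standard error 0.092, edgeR adjusted p = 0.000514).

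Of the 4 core chaperone genes, which assist the assembly of the alpha ring, 2 were called higher (50%) and 0 lower. The shares over all loci tested were 28.4% and 29.6%, and the median log2 fold change of the 4 genes was 0.20. *Psmg1* (XLOC_018699, chromosome 16, 95979933 to 95990960) had 21.9, 22.6 and 21.3 CPM in Scr siRNA cultures 1, 2 and 3 and 26.5, 26.2 and 27.7 CPM in Yme1l siRNA cultures, with no overlap (log2 fold change 0.29, standard error 0.071, edgeR adjusted p = 0.00763). *Psmg4* (XLOC_011532, chromosome 13, 34162964 to 34178173), the least abundant of the 4, had 6.05, 6.65 and 7.06 CPM with Scr siRNA and 8.41, 8.05 and 8.69 CPM with Yme1l siRNA. Its groups did not overlap (log2 fold change 0.35, standard error 0.12, edgeR adjusted p = 0.0294), but 4 of the 6 fits with a culture removed lost the call, with an edgeR adjusted p of up to 0.110 and log2 fold changes of 0.28 to 0.40. The cultures removed there were Scr siRNA 1 or 2 and Yme1l siRNA 1 or 3. *Psmg2* (0.019) and the locus that joins *Psmg3* with *Gm26938* and *Tmem184a* (0.11) were not called, and their groups overlapped.

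Of 3 genes for proteins that bind the ends of the core, 1 was called higher, 1 lower and 1 not called. These shares, 33.3% in each direction, lie near the 28.4% and 29.6% of all loci tested. *Psme4*, which encodes a nuclear activator of the core (XLOC_006074, chromosome 11, 30771726 to 30880361), had 199.7, 206 and 213 CPM in Scr siRNA cultures 1, 2 and 3 and 114, 89.6 and 128 CPM in Yme1l siRNA cultures. It was 1.87-fold lower, the largest decrease among the members (log2 fold change -0.90, standard error 0.12, edgeR adjusted p = 0.000357). *Psmf1*, which encodes a proteasome inhibitor (XLOC_025563, chromosome 2, 151715812 to 151744186), had 50.01, 49.2 and 46.3 CPM with Scr siRNA and 61.4, 64.0 and 56.4 CPM with Yme1l siRNA, higher in every culture of the latter (log2 fold change 0.32, standard error 0.071, edgeR adjusted p = 0.00472). *Psme3* (XLOC_006993, chromosome 11, 101316213 to 101323537), the nuclear relative of *Psme1* and *Psme2*, had 174, 173 and 163 CPM with Scr siRNA and 199, 179 and 212 CPM with Yme1l siRNA. Its groups did not overlap, but its edgeR adjusted p was 0.0554 (log2 fold change 0.20). The call was gained with DESeq2, upper-quartile factors, a minimum mean of 50 counts or without Yme1l siRNA culture 2, with an adjusted p of 0.0416 in DESeq2 and of 0.0348, 0.0253 and 0.0123 in edgeR.

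**Figure D2:**
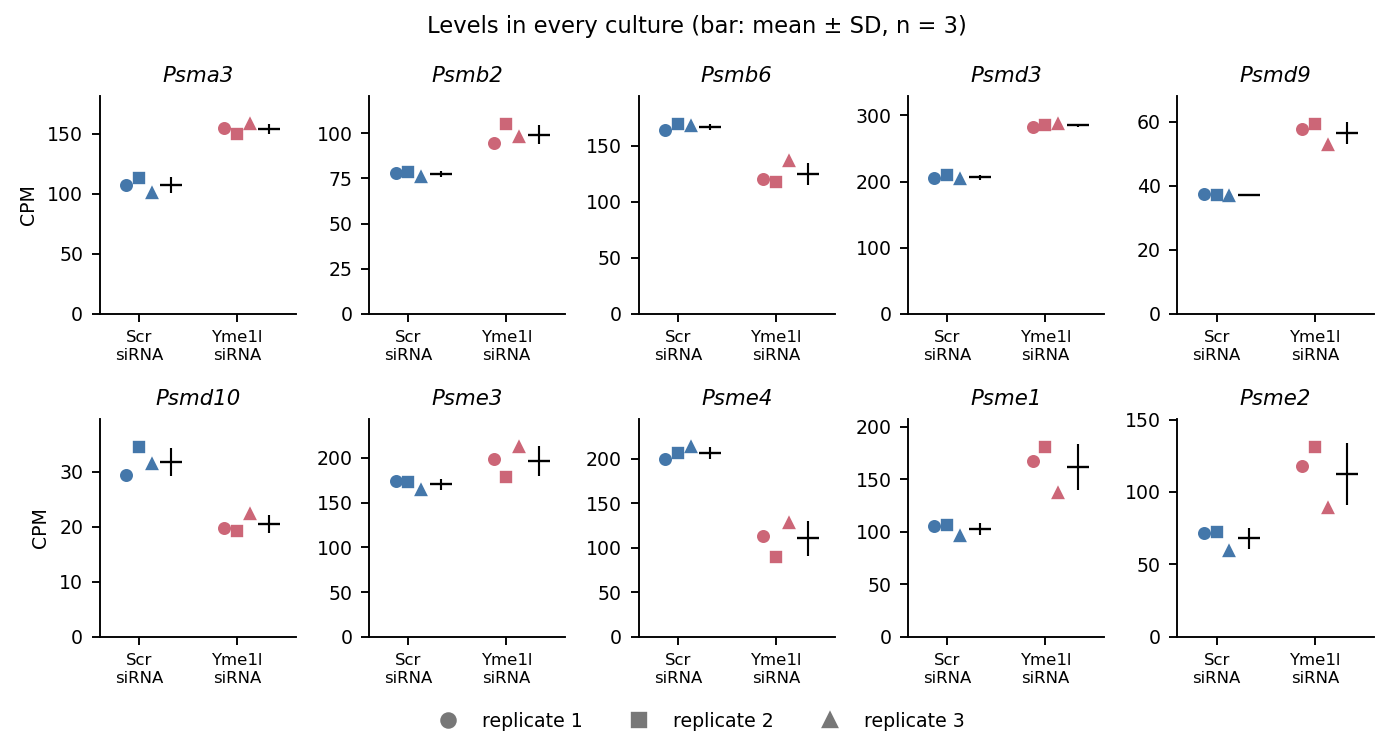
CPM (y axis, starting at 0) of 8 members and of *Psme1* and *Psme2* in each culture, with symbols for the replicate number and the mean with SD of 3 cultures beside them. *Psmb6*, *Psmd10* and *Psme4* were lower in every Yme1l siRNA culture than in any Scr siRNA culture, and the other genes shown were higher.

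The interferon-responsive contrast genes rose more than the median member. *Psme1* (XLOC_014421, chromosome 14, 55578123 to 55581529) had 106, 107 and 96.2 CPM in Scr siRNA cultures 1, 2 and 3 and 167, 181 and 137 CPM in Yme1l siRNA cultures (log2 fold change 0.65, standard error 0.11, edgeR adjusted p = 0.000902). *Psme2* (XLOC_015550, chromosome 14, 55587441 to 55591113), 5911 bases from *Psme1* on the opposite strand, had 71.8, 72.7 and 59.5 CPM with Scr siRNA and 118, 131 and 89.1 CPM with Yme1l siRNA (log2 fold change 0.73, standard error 0.14, edgeR adjusted p = 0.00254). For both genes Yme1l siRNA culture 2 was highest and culture 3 lowest, and the groups did not overlap. The sequence of *Psme2b* is 99.37% identical to *Psme2* over 794 bases, so that the reads of these genes may not be separable. The immunoproteasome genes went from 2.61 ± 1.27 to 20.8 ± 9.398 CPM for *Psmb8*, from 2.33 ± 0.807 to 6.69 ± 3.40 CPM for *Psmb9* and from 13.8 ± 2.06 to 32.4 ± 10.6 CPM for *Psmb10*, with log2 fold changes of 3.00, 1.52 and 1.23 (edgeR adjusted p = 0.000636, 0.0133 and 0.00193). *Irf1* (0.54), whose product drives these genes, was called higher as well, so that 6 of 6 genes reported from this list were called higher, against 28.4% of all loci tested, with a median log2 fold change of 0.98. *Psmb8*, *Psmb9* and *Irf1* share 498, 212 and 135 exon bases with *Gm20496*, *Tap1* and *Gm17334* on the opposite strand.

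Whether an interferon-responsive gene changed more than its constitutive relative was tested within cultures, as the difference in log2 CPM with a prior count of 0.5. *Psme1* minus *Psme3* was -0.72, -0.70 and -0.76 in Scr siRNA cultures and -0.25, 0.016 and -0.62 in Yme1l siRNA cultures, a mean difference of 0.44. *Psme2* minus *Psme3* was -1.28, -1.25 and -1.46 in Scr siRNA cultures and -0.76, -0.45 and -1.25 in Yme1l siRNA cultures, a mean difference of 0.51. In both ratios Yme1l siRNA culture 3 came close to the Scr siRNA cultures, with gaps to the nearest of 0.074 and 0.0041, and for *Psme2* the separation of the groups rests on this small gap. The mean differences were 2.80 for *Psmb8* minus *Psmb5*, 1.84 for *Psmb9* minus *Psmb6* and 1.23 for *Psmb10* minus *Psmb7*. All 5 ratios were higher in 3 of 3 Yme1l siRNA cultures than in any Scr siRNA culture, and each gave p = 0.1 in a two-sided exact permutation test, the smallest that 3 against 3 cultures allow (adjusted p = 0.1 over 5 ratios). Without Yme1l siRNA culture 2, the mean difference of *Psme1* minus *Psme3* was 0.29 and that of *Psme2* minus *Psme3* was 0.33, and without culture 3 they were 0.61 and 0.73.

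**Figure D3:**
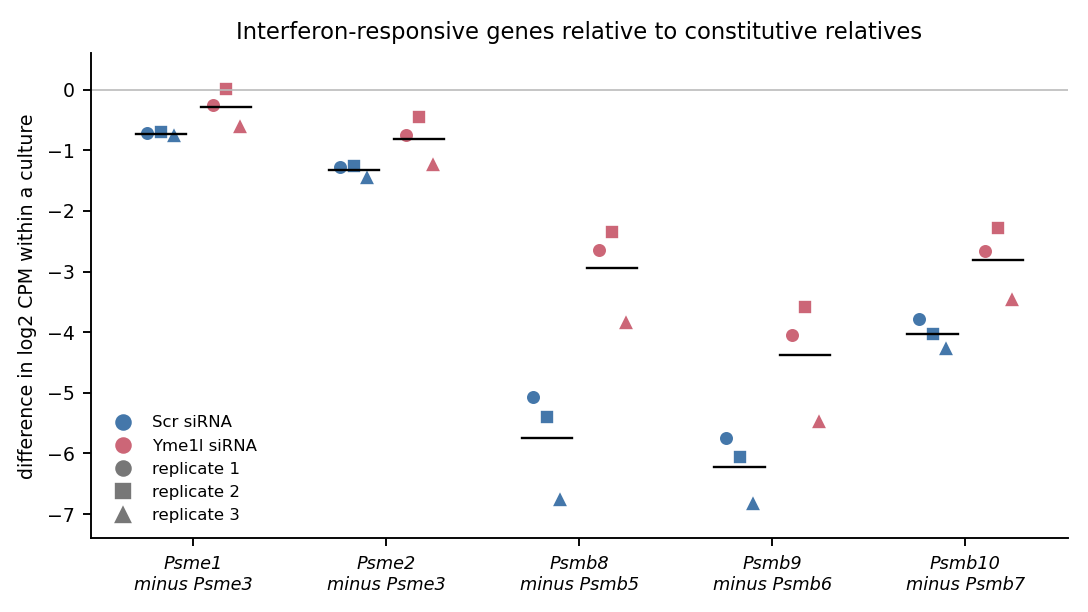
Difference in log2 CPM within each culture (y axis) between an interferon-responsive gene and a constitutive relative, for 5 pairs, with horizontal bars for the mean of 3 cultures and symbols for the replicate number. Every pair lies higher in Yme1l siRNA cultures, and culture 3 of that group lies lowest of its 3 in each pair.

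The constitutive catalytic genes remained far more abundant than their inducible relatives. Per kb of the longest basic protein-coding transcript, *Psmb8* made up 1.61%, 1.28% and 0.501% of the sum of *Psmb8* and *Psmb5* in Scr siRNA cultures and 8.15%, 9.83% and 3.68% in Yme1l siRNA cultures. *Psmb9* was 0.820% ± 0.290 of the sum with *Psmb6* in Scr siRNA cultures and 3.14% ± 1.71 in Yme1l siRNA cultures. *Psmb10* was 5.18% ± 0.845 of the sum with *Psmb7* with Scr siRNA and 11.7% ± 4.05 with Yme1l siRNA (n = 3 each). The inducible share was thus under 16% in every culture, with the highest value, 15.4% for *Psmb10*, in Yme1l siRNA culture 2.

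Transcript levels of the particle subunits, compared per kb of the longest basic protein-coding transcript, were unequal although the subunits are built in fixed proportions. Among 30 subunits alone in their locus, the highest level in Scr siRNA cultures was 209 ± 3.53 CPM per kb for *Psmb6* and the lowest 37.7 ± 2.30 CPM per kb for *Psma3*, which were 5.54-fold apart. The lengths of *Psma3* and *Psma2*, 2846 and 2911 bases, are those of long transcript forms, and use of shorter forms would raise their levels per kb. By role, the median level in Scr siRNA cultures was 159 CPM per kb for the beta ring, 94.4 for the base, 86.2 for the alpha ring and 68.5 for the lid. The base chaperones and core chaperones lay lower, at medians of 22.2 and 21.02 CPM per kb. In Yme1l siRNA cultures, *Psmb3* led with 206 ± 11.6 CPM per kb, ahead of *Psmb7* with 188 ± 13.6, neighbours whose ranges of mean ± SD overlapped, and *Psmb6* went from rank 1 to rank 7 at 156 ± 12.8 CPM per kb. *Psmb1* went from rank 10 to rank 18, the largest move, although its own level changed little, from 109 ± 4.82 to 107 ± 3.19 CPM per kb. In Yme1l siRNA cultures its neighbour *Psma1* stood at 107 ± 3.25 CPM per kb, so the ranges of mean ± SD overlapped here too. Over all subunits the orders in the 2 groups had a Spearman correlation of 0.96 across 30 subunits, which share the libraries and transcript lengths and are not independent replicates.

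**Figure D4:**
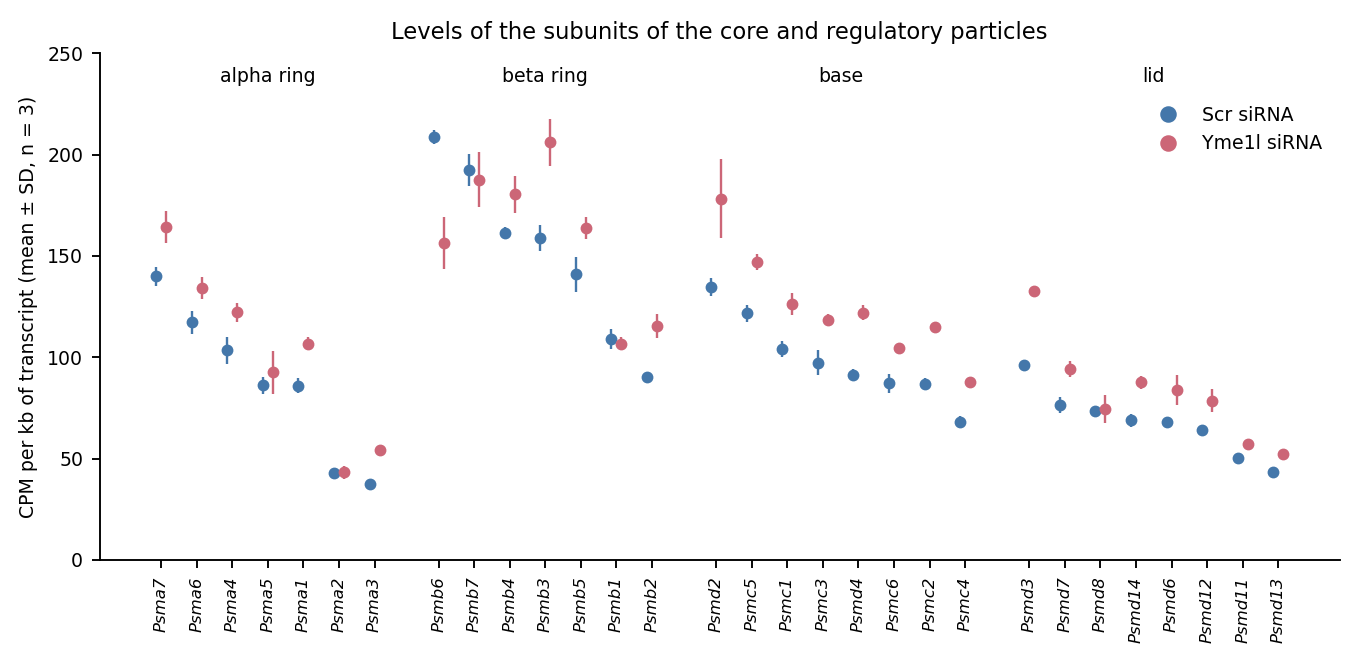
CPM per kb of transcript (y axis, mean with SD of 3 cultures) for 30 subunits in 4 role groups, ordered by the Scr siRNA level within each group, with Scr siRNA in blue and Yme1l siRNA in red. *Psmb6* was the most abundant subunit in Scr siRNA cultures, at 209 CPM per kb, and fell by rank in Yme1l siRNA cultures, at 156 CPM per kb, whereas the base and lid lie higher in red throughout apart from *Psmd8*, where the bars overlap.

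Genes for partners of the proteasome that carry other names were called in both directions. Of 15 partner genes reported, *Paaf1* was not found in the table, and of 14 tested, 5 were called higher (35.7%) and 3 lower (21.4%), against 28.4% and 29.6% of all loci tested, with a median log2 fold change of 0.085. *Uchl5*, a deubiquitinase of the regulatory particle (XLOC_001177, chromosome 1, 143777272 to 143807466), had 30.0, 33.1 and 35.0 CPM in Scr siRNA cultures 1, 2 and 3 and 75.2, 74.6 and 80.3 CPM in Yme1l siRNA cultures, 2.35-fold higher (log2 fold change 1.23, standard error 0.077, edgeR adjusted p = 1.07e-05). *Zfand5*, which encodes a stimulator of the proteasome (XLOC_021485, chromosome 19, 21272278 to 21286840), had 118, 119 and 115 CPM with Scr siRNA and 55.2, 56.5 and 54.3 CPM with Yme1l siRNA, 2.11-fold lower (log2 fold change -1.08, standard error 0.062, edgeR adjusted p = 7.94e-06). Both genes changed more than any member, in opposite directions and with tight groups. *Ubqln2*, which shuttles ubiquitinated proteins to the proteasome (XLOC_048584, chromosome X, 153498227 to 153501570), had 108, 103 and 112 CPM with Scr siRNA and 67.0, 62.7 and 80.1 CPM with Yme1l siRNA, lower in all 3 cultures (log2 fold change -0.62, standard error 0.097, edgeR adjusted p = 0.000767). The related shuttle *Ubqln4* (0.52), the ubiquitin receptor *Adrm1* (0.44), *Akirin2* (0.38), needed for nuclear import of proteasomes, and *Pomp* (0.33), a chaperone of core maturation, were called higher. *Ube3c* (-0.28) was called lower, a call it kept only in the fit without Yme1l siRNA culture 3 among 6 (edgeR adjusted p of up to 0.0729 after removing Scr siRNA 1, 2 or 3 or Yme1l siRNA 1 or 2), with log2 fold changes of -0.35 to -0.18. The partners not called were *Rad23b* (0.19), *Txnl1* (0.091), *Ecpas* (0.079), *Sem1* (-0.054), *Ubqln1* (-0.057) and *Usp14* (-0.10). *Rad23b* had groups that did not overlap and gained a call without Yme1l siRNA culture 2, where its log2 fold change was 0.26. The other partners not called moved by more than 1.5 times when a culture was left out, over ranges of 0.011 to 0.18 for *Txnl1*, 0.034 to 0.15 for *Ecpas*, -0.11 to -0.0082 for *Sem1*, -0.14 to 0.022 for *Ubqln1* and -0.21 to -0.010 for *Usp14*. *Usp14* shares 2169 exon bases with *Thoc1* on the opposite strand. A copy of *Adrm1*, *Gm9774*, is 99.8% identical over 88.5% of the *Adrm1* transcript.

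The factor known to induce proteasome genes when the protease is impaired, NFE2L1, is released from the endoplasmic reticulum and activated by a set of enzymes. Of 15 genes of this pathway, 4 were called higher and 4 lower (26.7% each), near the 28.4% and 29.6% of all loci tested, with a median log2 fold change of 0.12. *Nfe2l1* itself had 439, 441 and 499 CPM in Scr siRNA cultures 1, 2 and 3 and 398, 388 and 387 CPM in Yme1l siRNA cultures (log2 fold change -0.23, standard error 0.075, edgeR adjusted p = 0.0251). Its groups did not overlap, but the call was lost without Scr siRNA culture 3 and without Yme1l siRNA culture 1 or 2, with an edgeR adjusted p of up to 0.0703 and log2 fold changes of -0.18, -0.25 and -0.22. *Nfe2l2*, a relative that binds the same elements, was called lower (-0.43), and *Nfe2l3* was not called (0.70, edgeR adjusted p = 0.271), at levels under 1 CPM in every library. *Nfe2l3* gained a call without Yme1l siRNA culture 3, and its log2 fold change lay between 0.33 and 1.11 when a culture was left out.

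Among the enzymes and partners of this pathway, *Ngly1*, the glycanase that processes NFE2L1 (XLOC_013723, chromosome 14, 16249280 to 16311926), had 23.7, 23.2 and 20.1 CPM in Scr siRNA cultures 1, 2 and 3 and 11.8, 9.46 and 11.8 CPM in Yme1l siRNA cultures. It was 2.02-fold lower (log2 fold change -1.02, standard error 0.12, edgeR adjusted p = 0.000154). *Ufd1* (XLOC_017699, chromosome 16, 18811779 to 18835261), a cofactor of the extracting ATPase VCP, had 57.0, 55.0 and 53.3 CPM with Scr siRNA and 77.8, 82.4 and 81.3 CPM with Yme1l siRNA, higher in all 3 cultures (log2 fold change 0.55, standard error 0.063, edgeR adjusted p = 0.000155). *Maff* (XLOC_016520, chromosome 15, 79346621 to 79359076), a small Maf protein that dimerizes with such factors, had 6.24, 5.87 and 4.57 CPM with Scr siRNA and 37.7, 46.7 and 28.3 CPM with Yme1l siRNA. This was the largest change of the list, 6.75-fold, and culture 2 was highest as for the contrast genes (log2 fold change 2.76, standard error 0.20, edgeR adjusted p = 1.75e-05). *Mafk* (0.55) and *Nploc4* (0.49), a further VCP cofactor, were called higher and *Ogt* (-0.44) lower, a call that *Ogt* lost without Yme1l siRNA culture 1 (edgeR adjusted p = 0.0511), over a range of -0.53 to -0.31 when a culture was left out. *Vcp* (0.075), *Ddi2* (0.15, joined with *Rsc1a1*), the protease that cleaves NFE2L1, *Mafg* (0.14, joined with *Sirt7*), *Hcfc1* (0.12), *Fbxw7* (-0.095) and *Btrc* (-0.15) were not called. A near copy, *Vcp-rs*, is 99.05% identical over 73.0% of the *Vcp* transcript.

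Promoter sequences were searched for the core of the antioxidant response element, TGACNNNGC, which NFE2L1 and NFE2L2 bind, and for the core of the interferon-stimulated response element, GAAANNGAA, on both strands. RefSeq windows of build GRCm38.p6, 250 bases before to 50 bases after a start site, were found for 37 of 45 member symbols, in 39 windows. The antioxidant core occurred in 6 member windows (15.4%), against 12.4% of 32851 windows of all genes, and in 0 of 3 windows of *Psme1* and *Psme2* and 0 of 3 of the immunoproteasome genes. These members were *Psmb5*, *Psmb6*, *Psmc6*, *Psmd9*, *Psmd12* and *Psme4*, which include 4 called higher and 2 called lower. The interferon core occurred in 6 member windows (15.4%), against 8.56% of all windows. These members were *Psmb3*, *Psmb4*, *Psmc2*, *Psmd4*, *Psmd9* and *Psmg4*, all called higher except *Psmb4*, which was not called. *Psmd9* thus holds both cores. The interferon core also occurred in 1 of 3 windows of *Psme1* and *Psme2* (that of *Psme1*). It occurred in 0 of 3 of the immunoproteasome genes, whose known elements may differ from these letters or lie elsewhere.

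Stretches with the interferon core are not shown. Those with the antioxidant core before the start site are shown because their genes moved in both directions, a choice made from the fold changes. They are written along each gene's strand with the match in capitals, read on either strand, from RefSeq on GRCm38.p6, and *Psme4* is not shown because its match runs over the start site. Those of *Psmb5* (chr14:54618014-54618062, minus strand), *Psmb6* (chr11:70525328-70525356, plus strand), *Psmd9* (chr5:123228139-123228187, plus strand), *Psmc6* (chr14:45329577-45329625, plus strand) and *Psmd12* (chr11:107479278-107479309, plus strand) are as follows.
Psmb5: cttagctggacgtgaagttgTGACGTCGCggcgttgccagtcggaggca
Psmb6: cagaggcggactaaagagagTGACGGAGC
Psmd9: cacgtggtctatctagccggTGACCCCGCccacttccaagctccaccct
Psmc6: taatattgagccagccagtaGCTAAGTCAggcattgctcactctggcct
Psmd12: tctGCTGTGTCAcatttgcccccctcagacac
The match begins 47 bases before the start in *Psmb5*, 9 in *Psmb6* and 31 in *Psmd9*, and 227 and 247 bases before it in *Psmc6* and *Psmd12*, where it lies on the opposite strand. The log2 fold changes of these genes were 0.21, -0.42, 0.61, 0.26 and 0.30. A match of these letters is a description of the window and says nothing of binding.

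Genes for ubiquitin and its activating enzymes were not called, which does not show that they were unchanged. Of 4 reported, 0 were called higher and 0 lower, against 28.4% and 29.6% of all loci tested, with a median log2 fold change of 0.13. Against 65.4% of all loci tested, the groups did not overlap for 1 gene (25%). This was *Ubb*, which encodes polyubiquitin (XLOC_006406, chromosome 11, 62551171 to 62553213), with 309, 305 and 235 CPM in Scr siRNA cultures 1, 2 and 3 and 319, 349 and 335 CPM in Yme1l siRNA cultures (log2 fold change 0.24, standard error 0.11, edgeR adjusted p = 0.0858). Without Scr siRNA culture 3 its log2 fold change was 0.12. *Rps27a* (XLOC_007502, chromosome 11, 29545846 to 29548109) had 128, 166 and 181 CPM with Scr siRNA and 162, 198 and 337 CPM with Yme1l siRNA, with groups that overlapped and Yme1l siRNA culture 3 far above the others (log2 fold change 0.55, standard error 0.25, edgeR adjusted p = 0.0894). *Rps27a* was called without Yme1l siRNA culture 1 (edgeR adjusted p = 0.0279, log2 fold change 0.75), and without Yme1l siRNA culture 3 its log2 fold change was 0.18 (edgeR adjusted p = 0.323). Transcripts at least 95% identical over at least 200 bases exist elsewhere for *Rps27a* and *Ubb*. *Uba6* (XLOC_033852, chromosome 5, 86109287 to 86172803), an activating enzyme, had 43.5, 41.3 and 46.5 CPM with Scr siRNA and 46.3, 41.8 and 45.3 CPM with Yme1l siRNA, and its groups overlapped (log2 fold change 0.023, standard error 0.073, edgeR adjusted p = 0.807). *Uba1* (0.0096), the other activating enzyme, had groups that overlapped too.

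The remaining members carry a name of this family without being part of the constitutive particle. *Psma8*, the testis form of an alpha subunit, had 0 counts in all 6 libraries, and *Psmb11*, the thymus form of *Psmb5* that lies 3410 bases from it, had 0, 0 and 0 counts in Scr siRNA libraries and 2, 1 and 1 in Yme1l siRNA libraries. The second locus of *Psmd5* had at most 2 counts in a library, so that none of these 3 passed the filter. The locus of *Psme2b* joined with *9930111J21Rik1* (XLOC_007622, chromosome 11, 48945354 to 48946190) had 26.7, 26.3 and 22.3 CPM with Scr siRNA and 48.2, 53.7 and 36.8 CPM with Yme1l siRNA, the highest log2 fold change of the 43 members (log2 fold change 0.88, standard error 0.14, edgeR adjusted p = 0.000781). As for *Psme2*, its near-identical relative, Yme1l siRNA culture 2 was highest and culture 3 lowest of that group. *Psmc3ip*, which encodes a partner of recombinases in meiosis (XLOC_008460, chromosome 11, 101091823 to 101095436), had 9.01, 10.6 and 11.02 CPM with Scr siRNA and 12.5, 14.9 and 14.7 CPM with Yme1l siRNA, with no overlap (log2 fold change 0.46, standard error 0.12, edgeR adjusted p = 0.0102), and shares 385 exon bases with *Mlx* on the opposite strand.

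Of the 43 members tested, 12 share exon bases with another gene, 9 of them on the opposite strand, 9 have a transcript elsewhere that is at least 95% identical over at least 200 bases, and 3 lie in loci that join several names. The 9 with a near copy elsewhere were *Psma3*, *Psma4*, *Psma5*, *Psmb3*, *Psmb5*, *Psmc1*, *Psmd2*, *Psmd11* and *Psme2b*. The part aligned was largest for *Psme2b* (94.9%), *Psmd2* (92.1%), *Psmb5* (88.5%), *Psmc1* (82.1%) and *Psmb3* (80.7%). Among the 26 members with none of these features, 17 were called higher (65.4%), 3 lower (11.5%) and 6 not called. Over all loci tested, 28.4% were called higher and 29.6% lower. The median log2 fold change of the 26 members was 0.28. The Spearman correlation of the log2 fold change with the Scr siRNA level per kb was -0.23 across 40 members alone in their locus, with transcript length 0.13 and with GC content 0.21, as a description across genes that share the same libraries.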

How the data were processed

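The authors mapped the reads to GRCm38 with HISAT2 2.0.4, assembled transcripts with StringTie 1.3.3 and compared groups with Cuffdiff 2.2.1 of Cufflinks, per the submitters' processing notes. The table used here holds raw counts per locus, deposited by the authors without normalization. The program that counted the reads and its use of the strand are not given in the sources used here. A further table of the authors' own comparison, with group FPKM values, log2 fold changes, test statistics, p-values and q-values, was not used. All 6 columns of counts were matched to a sample and 0 were left unmapped.

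Loci were kept by filterByExpr in edgeR 4.0.16 under R 4.3.3, with min.count 10 and min.total.count 15, and library sizes were scaled by TMM factors. Yme1l siRNA was compared with Scr siRNA by glmQLFit and glmQLFTest without covariates, with Benjamini-Hochberg adjustment over 14499 loci and a threshold of 0.05, and the fit was tested on simulated data. Standard errors were the absolute log2 fold change over the square root of F, and the common biological coefficient of variation was 0.131. No 2 libraries of a group were copies of each other, since chi-square over degrees of freedom between them was 10.5 to 76.5, and all 6 were kept. Ratios of genes were compared by a two-sided exact permutation test over the 6 libraries. The p-values cover the spread between cultures with 1 control siRNA treatment, and the number of WT clones behind the cultures is not given in the sources used here.

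Role groups and 4 lists were used: proteasome partners, NFE2L1 and its activation, ubiquitin and E1 enzymes, and the interferon-responsive contrast. The members and lists were chosen with earlier results of these data known, and lists are described by counts and medians only. Of the genes of the lists, 4 are not reported here, for a reason other than their values, and the counts and medians of the lists are over the others. Named with full values were *Yme1l1*, *Psme1*, *Psme2*, the 2 members of each role group with the smallest adjusted p, the members with the highest and lowest log2 fold change, and 3 genes per list by smallest adjusted p, of which *Psmb8* and *Psmb10* are given as group means. *Psmd10*, *Psme3* and *Nfe2l1* were added after their values were seen. Gene positions, exon overlaps and transcript lengths came from GENCODE M21, near copies from BLAST 2.17.0 and promoter windows from RefSeq, and figures were drawn with matplotlib 3.10.9. Alternatives were DESeq2 1.42.0, limma-voom (limma 3.58.1), RLE and upper-quartile factors, no filter, a mean of at least 50 counts, a threshold of 0.01, removal of mtDNA loci, the replicate number as a block, leaving out each library, and a prior count of 2 for the ratios.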

Additional observations from a re-analysis of the deposited data

How the results depend on the processing

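The number of members called higher lay between 20, at a threshold of 0.01, and 32, with a minimum mean of 50 counts or without Yme1l siRNA culture 2, and the 3 members called lower were called under every alternative run. Leaving out each culture in turn gave 21 to 32 members called higher and a median log2 fold change of 0.24 to 0.30. Over all loci it gave 3451 to 4133 called higher and 3616 to 4312 called lower. With RLE and upper-quartile factors, 30 and 31 members were called higher, no member changed sign, and the median over all loci was 0.015 and 0.028. Without a filter, *Psma6*, *Psmb5*, *Psmd11* and *Psmg4* lost the call.

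Of the list counts, that of ubiquitin and E1 changed by more than 1.5 times. It was 0 of 4 genes as reported and 1 (*Rps27a*) without a filter, with the replicate number as a block and without Yme1l siRNA culture 1, so between 0 and 1 when a culture was left out, where the cause was not tested. *Psmb7* was -0.037 as reported and 0.011 without Yme1l siRNA culture 2, with a range over the 6 fits from -0.10 to 0.011, and it was not called in any. *Uba6* was 0.023 as reported, -0.023 without Scr siRNA culture 2 and -0.0066 without Yme1l siRNA culture 1, with a range from -0.023 to 0.073, also never called. *Psma2*, *Psmd8* and *Psmg2* changed sign in fits that left out a culture and *Psmb1* with a minimum mean of 50 counts, at log2 fold changes near 0 and without a call. Among other genes not called, *Psmb1*, *Psmd1*, *Psmg3*, *Vcp*, *Mafg*, *Hcfc1*, *Fbxw7* and *Uba1* also moved by more than 1.5 times when a culture was left out, *Uba1* with a change of sign (-0.032 to 0.064). Leaving out a culture took *Ubb* from 0.24 to 0.12 (Scr siRNA 3) and *Rps27a* from 0.55 to 0.18 (Yme1l siRNA 3). Without Yme1l siRNA culture 2, *Psme1* minus *Psme3* went from 0.44 to 0.29 and *Psme2* minus *Psme3* from 0.51 to 0.33. For the ratios, a prior count of 2 gave differences within 0.03 of those reported.

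Replicate numbers were not taken as pairs, since the correlation of deviations from the group means was 0.0409, 0.116 and 0.192 for equal numbers, not over 0.1 in each. For unequal numbers it was -0.181 to 0.0910. Each Yme1l siRNA culture correlated best with the Scr siRNA culture of its number, and so did Scr siRNA cultures 2 and 3 the other way round, but not Scr siRNA culture 1. As a block they gave 29 members called higher and 3 lower, without *Psma6*, and 4227 and 4460 of all loci. With 3 cultures per group, real differences may have been missed, and the members not called are not shown to be unchanged. Fits without a culture have fewer samples, so that a lost call may come with an equal log2 fold change.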
